A study of Mus musculus with 18 samples.

Results

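The 8 genes described here encode tissue kallikrein (*Klk1*), the membrane serine proteases hepsin (*Hpn*), prostasin (*Prss8*), matriptase (*St14*), *Tmprss2* and *Tmprss4*, and the membrane-bound Kunitz inhibitors *Spint1* and *Spint2*. They were taken by gene name from the 55401 genes of the deposited tables, and each name was found once. Tissue kallikrein is secreted into the tubular fluid by distal nephron segments, where it releases kinins from kininogen. Hepsin is known to cleave uromodulin, the main protein that thick ascending limb (TAL) cells release into urine. Prostasin and matriptase activate each other and, with the TMPRSS proteases, can cleave and activate the epithelial sodium channel, and SPINT1 and SPINT2 hold matriptase, prostasin and hepsin in check.

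The study profiled cortical (CTAL) and medullary (MTAL) thick ascending limbs of mice with normal or reduced claudin-10, a tight junction protein that lets sodium pass between cells. The deletion was conditional and not complete. Mice of both genotypes were untreated adult males, several months old. The labels give the strain as C57BL/6J, whereas the study's methods describe a background that was mostly, not wholly, C57BL/6. All mice carried floxed *Cldn10* alleles (*Cldn10* fl/fl). The knock-out mice (cKO) also carried a Cre transgene. Its Ksp-cadherin promoter drives deletion along the distal nephron and hence not only in the TAL. Littermates without Cre were the controls (WT). Each pool held 150 to 200 hand-dissected tubules from a single mouse. There were 5 pools of WT CTAL, 5 of cKO CTAL, 5 of WT MTAL and 3 of cKO MTAL. The study reports that nephrocalcinosis in the cKO outer medulla made cKO MTAL hard to dissect, and it dropped cKO MTAL pools after quality control. The part of nephrocalcinosis in the differences of cKO MTAL was not tested.

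Total estimated counts lay between 10824328 and 62339991 per pool. *Cldn10* was at 384 to 810 CPM (counts scaled to library size) in WT pools and at 151 to 295 CPM in cKO pools. The study kept only cKO pools with lower *Cldn10* than WT and left out a cKO CTAL pool at a level like WT CTAL. This separation was therefore set in part by selection. *Slc12a1*, the sodium-potassium-chloride cotransporter that defines the TAL, was between 11424 and 16145 CPM in all 18 pools. WT CTAL pool 1 has a title and a genotype label that name the knock-out, but a pool name that gives WT. Its *Cldn10* level was 446 CPM, which, given that selection, does not settle its genotype, and it was used as WT. Although the mice were described as male, *Xist*, which is transcribed from the inactive X chromosome of female cells, was at 6.50 to 8.77 CPM in 7 pools and at 0.233 to 0.738 CPM in the other 11. The 7 were WT MTAL pools 11, 15, 17 and 19, WT CTAL pools 3 and 22, and cKO CTAL pool 2, with no cKO MTAL pool among them, and all 18 pools held Y-linked transcripts. In pools of tubules, fewer cells of a type and less RNA per cell cannot be told apart.

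The promoters of *Klk1* and *Tmprss2* are printed because these were the members that differed between the segments in both genotypes. Promoter sequences from RefSeq on GRCm38.p6 (mm10) matched 5 of the 8 members, which were *Klk1*, *Hpn*, *Tmprss2*, *Spint1* and *Spint2*. *Klk1* lies on the forward strand of chromosome 7 (44225360 to 44229618), and *Tmprss2* on the reverse strand of chromosome 16 (97564682 to 97611195). The windows are the 250 bases upstream of the start, chr7:44225110-44225359 on the forward strand and chr16:97611196-97611445 on the reverse strand. The motifs searched on both strands were the core sequence AGGTCA, which is recognised by many nuclear receptors, the promoter element TATAAA, which binds the general transcription machinery, the element GGGCGG bound by SP1 proteins, the element CACGTG bound by many helix-loop-helix factors, and the element CCAAT bound by NF-Y. Capitals mark their matches, and no match overlapped another.
Klk1 promoter: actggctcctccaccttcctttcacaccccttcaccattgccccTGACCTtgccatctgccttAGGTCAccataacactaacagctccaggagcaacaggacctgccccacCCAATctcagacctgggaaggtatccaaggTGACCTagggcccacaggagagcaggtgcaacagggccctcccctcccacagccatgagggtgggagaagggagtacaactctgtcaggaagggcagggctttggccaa
Tmprss2 promoter: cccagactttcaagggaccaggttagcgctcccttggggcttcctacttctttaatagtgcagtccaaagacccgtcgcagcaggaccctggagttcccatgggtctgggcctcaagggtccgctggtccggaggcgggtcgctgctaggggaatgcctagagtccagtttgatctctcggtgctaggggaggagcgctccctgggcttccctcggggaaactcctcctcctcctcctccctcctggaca
The *Klk1* window held AGGTCA beginning 187 bases before the start, its reverse complement at 206 and 109 bases before the start, and CCAAT at 139. AGGTCA was present in 14.0% of the 32851 promoter windows of the same length and CCAAT in 33.8%. The *Tmprss2* window held none of the 5 motifs, which says only that these letters are not in it. The GGGCGG motif, found in 32.7% of windows, was present upstream of *Spint1* and *Spint2*. Of the *Hpn* windows, chr7:31115327-31115576 held it and chr7:31110998-31111247 held none of the 5 motifs. The 5 matched members had 6 windows in all. TATAAA (12.4% of windows) and CACGTG (6.02%) were in none of the members' windows.

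*Klk1* had the highest mean level of the 8 members in every group on a per-length scale, though in WT MTAL its range overlapped that of *Spint2* (555 to 823 and 374 to 565 TPM). In TPM, the deposited unit that corrects for transcript length and depth, it reached 3246 ± 480 in WT CTAL and 5055 ± 1155 in cKO CTAL (mean ± SD, n = 5 each). It reached 682 ± 130 in WT MTAL (n = 5) and 1956 ± 389 in cKO MTAL (n = 3). By mean TPM it ranked 28 among all genes in WT CTAL, 21 in cKO CTAL, 90 in WT MTAL and 36 in cKO MTAL. *Klk1* took 73.1% to 80.0% of the summed TPM of the 8 genes in WT CTAL and 77.2% to 85.9% in cKO CTAL. It took 37.4% to 45.8% in WT MTAL and 57.1% to 64.5% in cKO MTAL, so the pools of WT MTAL lay below, and those of cKO MTAL between, the pools of the other groups.

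*Spint2* came next, at 475 ± 60.0 TPM in WT CTAL, 514 ± 41.7 in cKO CTAL, 475 ± 69.5 in WT MTAL and 632 ± 35.2 in cKO MTAL. *Hpn* (170 to 189 TPM as group means), *St14* (111 to 157), *Tmprss2* (49.8 to 118), *Spint1* (80.8 to 92.6) and *Prss8* (58.02 to 73.5) were lower. *Tmprss4* was close to absent, with a highest group mean of 0.255 TPM. The summed TPM of the inhibitors was 1.03 to 1.51 times that of the 5 membrane proteases in WT CTAL, 1.06 to 1.38 times in cKO CTAL, 1.22 to 1.47 times in WT MTAL and 1.35 to 1.49 times in cKO MTAL. These ranges overlapped between all groups.

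**Figure D1:**
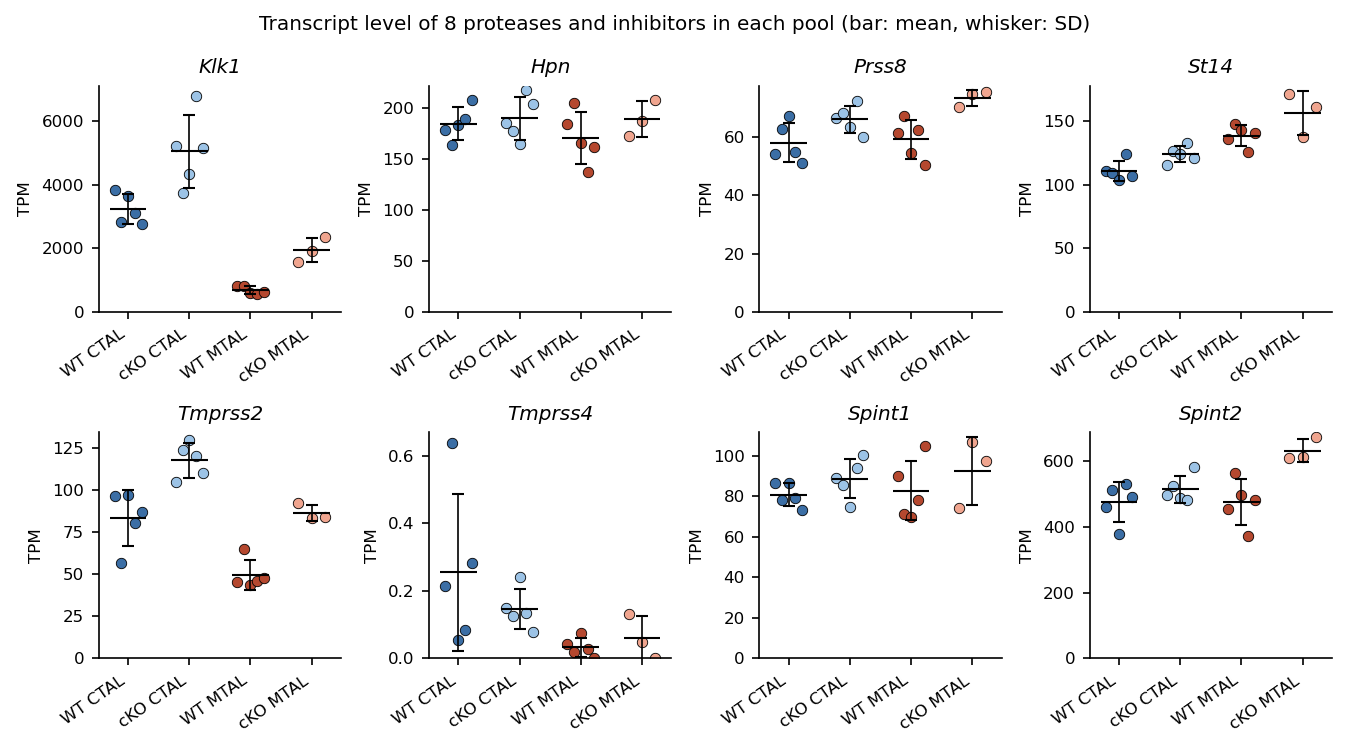
TPM (y axis, linear from 0, a separate scale for each gene) of the 8 genes in each pool, with 1 point per pool and the 4 groups along the x axis. Bars are means and whiskers SDs over 5 pools, or 3 for cKO MTAL. *Klk1* is lowest in WT MTAL (555 to 823 TPM), while *Hpn*, *Prss8* and *Spint1* overlap between most groups.

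The following levels are CPM on TMM-normalised library sizes, which do not correct for length and are compared only within a gene. *Klk1* in the WT CTAL pools 1, 3, 8, 10 and 22 was 2360, 1837, 2266, 1797 and 1675 CPM. In the cKO CTAL pools 2, 4, 7, 9 and 21 it was 3147, 2077, 2651, 3521 and 2944 CPM. These groups overlapped only through cKO CTAL pool 4, which lay below WT CTAL pools 1 and 8. In the WT MTAL pools 11, 13, 15, 17 and 19, *Klk1* was 532, 471, 369, 382 and 405 CPM. In the cKO MTAL pools 16, 18 and 20 it was 921, 1058 and 1253 CPM. The cKO MTAL pools all lay between the WT MTAL pools and the CTAL pools of either genotype. The order of the groups was thus cKO CTAL, WT CTAL, cKO MTAL and WT MTAL, and of these neighbours only the CTAL groups overlapped.

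*Klk1* was 4.60-fold lower in WT MTAL than in WT CTAL (log2 fold change -2.20, SE 0.12, adjusted p = 5.27e-08, quasi-likelihood F test of edgeR with Benjamini-Hochberg adjustment over 11650 genes). It had the smallest p of all genes in that comparison. In this comparison, 3 of the 7 members tested passed at adjusted p under 0.05, where 6.87% of all genes tested did. In cKO mice, *Klk1* was 2.59-fold lower in MTAL than in CTAL (log2 fold change -1.37, SE 0.17, adjusted p = 0.00153), and there 2 of 7 members passed, where 1.75% of all genes did.

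Between genotypes, *Klk1* was 2.51-fold higher in cKO MTAL than in WT MTAL (log2 fold change 1.33, SE 0.14, adjusted p = 3.12e-05, rank 19 of 12060 genes by p). It was the only member to pass there, 1 of 7, where 7.01% of all genes passed. The cKO MTAL level remained 1.84-fold below that of WT CTAL (log2 fold change -0.88, SE 0.14, adjusted p = 0.00627). In that comparison 1 of 7 members passed, where 2.5% of all genes did. On log2(TPM + 1), limma gave -0.74 for that last difference, with adjusted p = 0.0784.

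In CTAL the genotype difference of *Klk1* did not pass the main test (log2 fold change 0.52, SE 0.14, 95% interval 0.25 to 0.79, adjusted p = 0.0869). None of the 7 members passed there, where 1.22% of all genes did. At an unadjusted p under 0.05, 2 members passed in the edgeR test, *Klk1* at 0.00177 and *Tmprss2* at 0.00731, where 11.8% of all genes did. For *Klk1* in CTAL, the likelihood ratio test of edgeR gave adjusted p = 0.0152, DESeq2 gave 0.00399, and leaving out cKO CTAL pool 4 gave a log2 fold change of 0.61 with adjusted p = 0.031.

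The genotype effect on *Klk1* was larger in MTAL than in CTAL by 0.79 on the log2 scale (SE 0.21), but this interaction had an adjusted p of 0.0752 and did not pass. The unadjusted p of the interaction was 0.000861 for *Klk1*, and none of the 7 members passed, where 0.286% of all genes did. No other member had an unadjusted p under 0.05 for the interaction, where 14.7% of all genes did. For *Klk1*, the likelihood ratio test of edgeR gave adjusted p = 0.021 and DESeq2 gave 0.0118. Leaving out cKO MTAL pool 18 gave adjusted p = 0.0403 and leaving out WT MTAL pool 11 gave 0.0485.

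**Figure D2:**
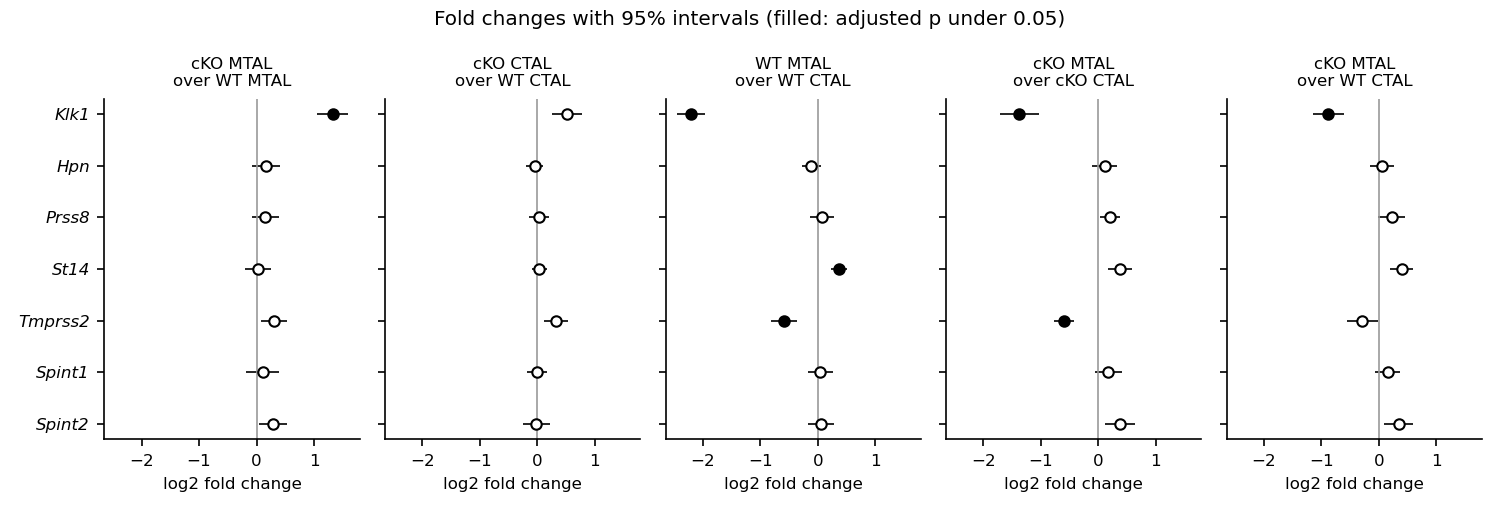
Log2 fold changes (x axis) of the 7 members tested (y axis) in the 5 comparisons of groups. Points are the fitted values, lines are 95% intervals, and filled points passed at adjusted p under 0.05. *Klk1* lies farthest from 0 in every panel, at 1.33 for cKO MTAL over WT MTAL and -2.20 for WT MTAL over WT CTAL.

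Pools with and without *Xist* were distributed unequally over the groups, so each *Klk1* difference was also fitted with a term for *Xist*, an alternative chosen after the data were seen. With that term, *Klk1* was higher in cKO MTAL than in WT MTAL by 1.24 (log2, adjusted p = 0.000247) and lower in WT MTAL than in WT CTAL by a log2 fold change of -2.16 (adjusted p = 3.95e-09). WT MTAL pool 13, the WT MTAL pool with little *Xist*, held 471 CPM of *Klk1*, and the other WT MTAL pools held 369 to 532 CPM. Counting WT CTAL pool 1 as cKO, or leaving it out, gave a log2 fold change of -2.14 between the WT segments (adjusted p = 6.65e-08 for both). For cKO CTAL over WT CTAL, counting it as cKO gave 0.54 (adjusted p = 0.0792).

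Markers of neighbouring segments were also compared with *Klk1*, since kallikrein is known best from the connecting tubule. The summed CPM of 5 connecting tubule markers was 109 to 129 in WT CTAL, 116 to 207 in cKO CTAL, 96.3 to 109 in WT MTAL and 93.0 to 132 in cKO MTAL. Most of this sum was *Atp2b1*, a calcium pump of many cell types, at 74.4 to 115 CPM over all pools. The defining connecting tubule calcium channel, *Trpv5*, was at 0.515 to 2.07 CPM in cKO MTAL and at most 0.231 CPM in WT MTAL, and at 0.457 to 5.76 CPM in cKO CTAL and 0.0778 to 0.367 CPM in WT CTAL. *S100g*, a calcium-binding protein of the same segment, was at 4.78 to 20 CPM in cKO MTAL and 1.73 to 3.35 CPM in WT MTAL, and at 8.81 to 24.1 CPM in cKO CTAL and 5.30 to 8.66 CPM in WT CTAL. In both segments the cKO pools thus lay above the WT pools for these 2 markers, as for *Klk1* in MTAL and, but for cKO CTAL pool 4, in CTAL. *Calb1* and *Slc8a1*, the other members of the marker list, overlapped between the genotypes in both segments.

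The 8 collecting duct principal cell markers summed to 127 CPM in cKO MTAL pool 16, 123 in pool 18 and 1050 in pool 20, and to 77.7 to 358 CPM in WT MTAL. Without cKO MTAL pool 20, *Klk1* was higher in cKO MTAL than in WT MTAL by 1.21 on the log2 scale (adjusted p = 0.000286). The 7 intercalated cell markers summed to 43.2, 58.9 and 253 CPM in cKO MTAL pools 16, 18 and 20. In WT MTAL they summed to 20.5 to 112 CPM. The 5 distal convoluted tubule markers summed to 198 to 237 CPM in WT CTAL and 243 to 302 in cKO CTAL. In MTAL they summed to 181 to 206 CPM in WT and 206 to 227 in cKO. Of these, *Slc12a3*, the sodium-chloride cotransporter, overlapped between genotypes, at 1.92 to 22.4 CPM in WT CTAL and 2.34 to 60.2 in cKO CTAL. The 10 proximal tubule markers summed to 25.5 to 99.9 CPM in cKO MTAL and 23.6 to 39.4 in WT MTAL. The 6 endothelial markers summed to 144 to 243 CPM in cKO MTAL and 256 to 398 in WT MTAL, and the 7 thin limb markers to 761 to 823 and 864 to 1100. The part of these other cell types in the *Klk1* differences was not tested.

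**Figure D3:**
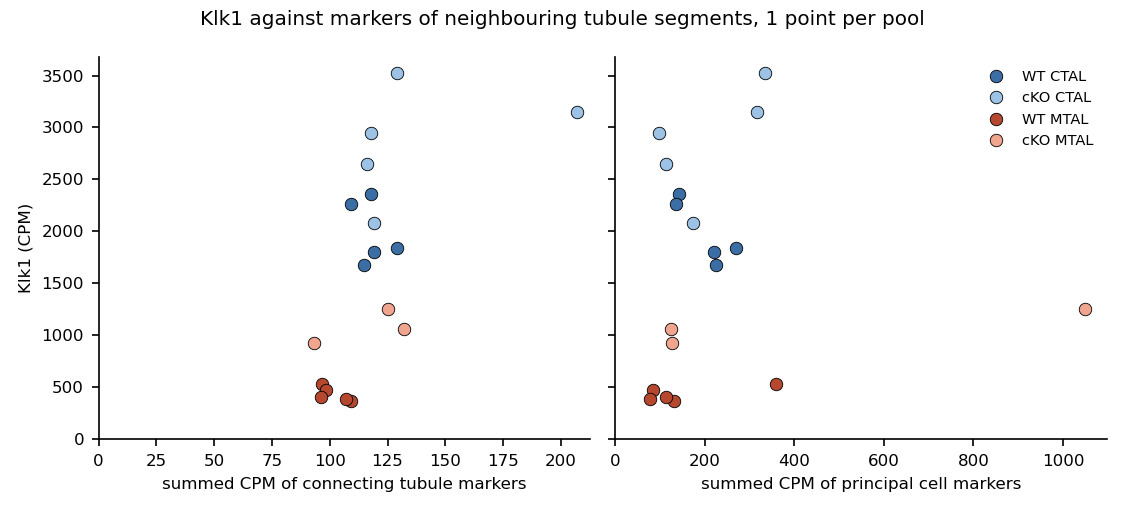
*Klk1* (y axis, CPM) against the summed CPM of 5 connecting tubule markers (left) and 8 principal cell markers (right), with 1 point per pool and colours for the 4 groups. cKO MTAL pool 20 stands at 1050 CPM of principal cell markers with 1253 CPM of *Klk1*, and the other cKO MTAL pools at 123 and 127 CPM with 1058 and 921 CPM.

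*Klk1* belongs to a family of closely related mouse genes. The estimated counts of *Klk1* held decimals in all 18 pools, as arises when reads are shared between genes. Of the 855 windows of 100 bases in its transcript, 52 (6.08%) were also found in *Klk1b5* or *Klk1b11*, while no window of the other 7 members was shared with another gene. The 13 *Klk1b* paralogues together held between 1.54% and 2.77% of the counts of *Klk1* in any pool. The *Klk1* locus overlaps the antisense gene *Gm10109*, which reached at most 4.09 CPM, and the use of strand in counting is not given in the sources used here.

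Among the membrane proteases, *Tmprss2*, an androgen-regulated protease best known from prostate and airway, was lower in MTAL than in CTAL in both genotypes. In the WT CTAL pools 1, 3, 8, 10 and 22 it was at 204, 153, 246, 183 and 173 CPM. In the cKO CTAL pools 2, 4, 7, 9 and 21 it was at 252, 225, 242, 260 and 237 CPM. WT CTAL pool 8 was the only WT CTAL pool within the cKO CTAL range. In the WT MTAL pools 11, 13, 15, 17 and 19 it was at 114, 151, 118, 125 and 129 CPM, and in the cKO MTAL pools 16, 18 and 20 at 157, 161 and 152 CPM. All WT MTAL pools lay below all other pools, though WT MTAL pool 13 lay close to the cKO MTAL pools and to WT CTAL pool 3.

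*Tmprss2* was 1.51-fold lower in WT MTAL than in WT CTAL (log2 fold change -0.59, SE 0.12, adjusted p = 0.00407). It was also 1.51-fold lower in cKO MTAL than in cKO CTAL (log2 fold change -0.60, SE 0.09, adjusted p = 0.00482). Between genotypes it differed by 0.30 in MTAL (SE 0.12, adjusted p = 0.125) and by 0.33 in CTAL (SE 0.11, adjusted p = 0.186), neither of which passed. Without WT CTAL pool 8, the CTAL difference was 0.43 with adjusted p = 0.0262. With a term for *Xist*, the MTAL difference was 0.13 (adjusted p = 0.548) and that between the WT segments -0.50 (adjusted p = 0.00197). Leaving out WT CTAL pool 1, whose labels conflict, gave -0.57 for *Tmprss2* (adjusted p = 0.0131) and 0.36 for *St14* (adjusted p = 0.0127) between the WT segments.

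The values of *Tmprss2* depended on the unit. On log2(TPM + 1), limma gave a difference of 0.80 between cKO MTAL and WT MTAL, which passed (adjusted p = 0.0426), while cKO MTAL and cKO CTAL differed by -0.44 and did not pass (adjusted p = 0.209). The TPM of *Tmprss2* was 44.0 to 65.3 in WT MTAL and 83.8 to 92.2 in cKO MTAL. The counts per unit of TPM, scaled to the median gene of each pool and to the mean of *Tmprss2* over the pools, were 1.02 to 1.16 in WT MTAL and 0.792 to 0.964 in cKO MTAL, so the apparent length of its transcripts was shorter in each cKO MTAL pool. These ranges did not overlap for *Tmprss2* alone among the 7 members, where 2.18% of 12525 genes were apart. By size the shift was less rare, as 12.8% of these genes differed at least as far as *Tmprss2* (log2 difference -0.293). The effect of transcript isoforms on this difference was not tested.

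*St14* (chromosome 9, 31089402 to 31131853, reverse strand), which encodes matriptase, went the other way between the segments. It was at 299, 307, 280, 312 and 301 CPM in the WT CTAL pools 1, 3, 8, 10 and 22. In the cKO CTAL pools 2, 4, 7, 9 and 21 it was at 300, 309, 330, 296 and 316 CPM. It was at 391, 380, 395, 364 and 406 CPM in the WT MTAL pools 11, 13, 15, 17 and 19, and at 432, 332 and 413 CPM in the cKO MTAL pools 16, 18 and 20. All MTAL pools lay above all CTAL pools, with cKO MTAL pool 18 the lowest of them. *St14* varied little between pools of a group, with an SD within groups of 0.0945 on log2(CPM + 1) against a median of 0.248 over all genes.

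*St14* was 1.29-fold higher in WT MTAL than in WT CTAL (log2 fold change 0.37, SE 0.07, adjusted p = 0.00262). In cKO mice the difference between the segments was 0.38 (SE 0.11), with adjusted p = 0.0939. Without cKO MTAL pool 18 it was 0.49 and passed (adjusted p = 0.011), and it also passed with the likelihood ratio test of edgeR (adjusted p = 0.0476). cKO MTAL and WT CTAL differed by 0.40 (SE 0.10, adjusted p = 0.0647), or by 0.50 without pool 18 (adjusted p = 0.0151). On log2(TPM + 1) the difference between the WT segments was 0.32 with adjusted p = 0.0762, and with a term for *Xist* it was 0.36 (adjusted p = 0.0078). The genotypes differed by 0.03 in MTAL and 0.04 in CTAL, with 95% intervals of -0.19 to 0.25 and -0.09 to 0.17.

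*Hpn* (chromosome 7, 31098725 to 31115290, reverse strand), the uromodulin-cleaving protease, did not pass in any of the 6 tests. Its level was 226 to 273 CPM in WT CTAL, 221 to 265 in cKO CTAL, 196 to 252 in WT MTAL and 226 to 288 in cKO MTAL, and all groups overlapped. Its difference between genotypes was 0.16 in MTAL (95% interval -0.08 to 0.40, adjusted p = 0.461) and -0.04 in CTAL (95% interval -0.19 to 0.11, adjusted p = 0.883).

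*Prss8* (chromosome 7, 127925716 to 127930104, reverse strand), which encodes the membrane-anchored sodium channel activator prostasin, passed no test either. It was at 74.8 to 98.7 CPM in WT CTAL, 84.9 to 92.8 in cKO CTAL, 77.8 to 100.1 in WT MTAL and 98.7 to 101 in cKO MTAL. The cKO MTAL pools lay above the CTAL pools of either genotype, though the nearest pools of cKO MTAL and WT CTAL both round to 98.7 CPM, and the difference was 0.21 from cKO CTAL (adjusted p = 0.232) and 0.22 from WT CTAL (adjusted p = 0.314). The locus overlaps *Kat8* on the opposite strand, which was at most at 17.4 CPM.

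*Tmprss4* (chromosome 9, 45172726 to 45204092, reverse strand) had 0 to 14 counts per pool and did not reach the minimum of 3 CPM, so it was not tested. It was above 0 in 16 of 18 pools, at 0.0656 to 0.753 CPM in WT CTAL, 0.0501 to 0.304 in cKO CTAL, up to 0.0578 in WT MTAL and up to 0.147 in cKO MTAL. The pools without a count were WT MTAL pool 19 and cKO MTAL pool 20, where 0 counts allow levels of up to 0.146 and 0.186 CPM, for counting error only. As measured, all WT MTAL pools were below all WT CTAL pools, where 7.37% of all genes tested were apart. The limit of 0.146 CPM for WT MTAL pool 19 is, however, above WT CTAL pools 8 (0.0656 CPM) and 10 (0.135 CPM). Without the filter, the log2 fold change of *Tmprss4* in WT MTAL over WT CTAL was -3.21 (SE 0.91) with adjusted p = 0.0695, from at most 10 counts per pool in these groups.

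Of the Kunitz inhibitors, *Spint2* (chromosome 7, 29256323 to 29281912, reverse strand) was highest in cKO MTAL. It was at 395, 466, 312, 427 and 455 CPM in the WT CTAL pools 1, 3, 8, 10 and 22, and at 417, 415, 405, 321 and 496 CPM in the cKO CTAL pools 2, 4, 7, 9 and 21. It was at 425, 471, 454, 338 and 455 CPM in the WT MTAL pools 11, 13, 15, 17 and 19, and at 517, 479 and 562 CPM in the cKO MTAL pools 16, 18 and 20. The cKO MTAL pools lay above all pools of WT MTAL and WT CTAL, but cKO MTAL pool 18 was below cKO CTAL pool 21. The differences of cKO MTAL were 0.29 from WT MTAL (SE 0.12, adjusted p = 0.169), 0.34 from WT CTAL (SE 0.13, adjusted p = 0.165) and 0.38 from cKO CTAL (SE 0.13, adjusted p = 0.153), and none passed.

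*Spint1* (chromosome 2, 119237362 to 119249527, forward strand) was at 119 to 143 CPM in WT CTAL, 119 to 153 in cKO CTAL, 110 to 162 in WT MTAL and 123 to 158 in cKO MTAL. The groups overlapped and none of its differences passed. The largest was 0.18 between cKO MTAL and cKO CTAL (95% interval -0.06 to 0.41, adjusted p = 0.48).

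Without regard to the test, 3 of the 7 members tested had no overlap in CPM between cKO MTAL and WT MTAL (*Klk1*, *Tmprss2* and *Spint2*), where 14.4% of all genes had none. Between cKO CTAL and WT CTAL it was 0 of 7, where 3.09% of genes were apart, and between WT MTAL and WT CTAL 3 of 7 (*Klk1*, *St14* and *Tmprss2*), where 7.37% were. Between cKO MTAL and cKO CTAL it was 4 of 7 (*Klk1*, *Prss8*, *St14* and *Tmprss2*), where 10.1% were apart. Between cKO MTAL and WT CTAL it was 4 of 7 (*Klk1*, *Prss8*, *St14* and *Spint2*), where 11.8% were. Over the 7 members the median log2 fold change was 0.163 in cKO MTAL over WT MTAL and 0.0374 in cKO CTAL over WT CTAL, beside 0.00118 and 0.00255 over all genes tested.

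The remaining kallikreins were scarce. Of the 26 other kallikrein genes listed, 9 exceeded 100 counts in a pool, 4 had no count and the highest value was 52.1 CPM. Only *Klk1b5* and *Klk1b11* passed the filter, and both share sequence with *Klk1*. *Klk1b11* was at 2.71 to 5.83 CPM in WT MTAL and 8.99 to 12.4 in cKO MTAL (log2 fold change 1.34, SE 0.36, adjusted p = 0.0372). *Klk1b5* was at 1.56 to 2.42 CPM and 5.33 to 6.18 CPM in these groups (log2 fold change 1.58, SE 0.37), but it met the filter only through cKO MTAL, where it was the higher, so this value is a description. Likewise, both genes met the filter between the WT segments only through WT CTAL, where they were higher, with log2 fold changes of -2.28 and -2.19 in WT MTAL over WT CTAL. Both were lower in cKO MTAL than in cKO CTAL (-1.63 and -1.30, adjusted p = 0.0161 and 0.0143). Neither passed between the genotypes in CTAL.

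Of the 23 other membrane serine proteases, only *Corin*, which activates atrial natriuretic peptide, was tested, and only where cKO MTAL and WT MTAL were compared and in the fit of all pools. *Corin* was at 2.45 to 6.62 CPM in WT MTAL and 0.395 to 0.956 CPM in cKO MTAL, with a log2 fold change of -2.86 (SE 0.54). It met the filter only through WT MTAL, where it was the higher, so this value is a description. In CTAL it was at 0.251 to 1.51 CPM over both genotypes.

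The kinin system holds the genes for the substrate, the receptors and the degrading enzymes on which kallikrein's product depends. Of its 10 genes, 8 were tested in MTAL between genotypes and 1 passed, where 7.01% of all genes did. This was *Bdkrb2*, the constitutive kinin receptor, at 0.651 to 1.77 CPM in WT MTAL and 6.93 to 10.1 CPM in cKO MTAL (log2 fold change 3.02, SE 0.43). *Bdkrb2* met the filter only through the cKO pools, where it was the higher, in either segment, so these differences are descriptions. In CTAL *Bdkrb2* was at 1.32 to 4.53 CPM in WT and 4.04 to 15.5 CPM in cKO (log2 fold change 1.64, SE 0.38, adjusted p = 0.0529), and none of the 7 kinin genes tested there passed, where 1.22% of all genes did. Between the WT segments, 3 of 7 were lower in MTAL, where 6.87% of all genes passed in either direction. They were the kininogen gene *Kng1* (-0.83, adjusted p = 0.0322) and the peptidases *Mme* (-0.64, adjusted p = 0.00563) and *Cpm* (-0.54, adjusted p = 0.0335). *Mme* and *Cpm* were also lower in cKO MTAL than in cKO CTAL (-0.51 and -0.95, adjusted p = 0.0493 and 0.0209).

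Of 15 other Kunitz, serpin and related inhibitors, 5 were tested. *Wfdc2*, a secreted protein with the fold of whey acidic protein inhibitors, was at 89.4 to 130 CPM in WT MTAL, 290 to 423 in cKO MTAL, 280 to 360 in WT CTAL and 360 to 540 in cKO CTAL. It rose in cKO MTAL by 1.64 (SE 0.14, adjusted p = 1.24e-05), was lower in WT MTAL than in WT CTAL (-1.53, SE 0.11, adjusted p = 1.98e-07) and passed the interaction test (1.23, SE 0.20, adjusted p = 0.00601). *Serpine2*, protease nexin-1, was at 4.03 to 13.3 CPM in WT MTAL and 2.07 to 3.67 CPM in WT CTAL (log2 fold change 1.40, SE 0.33), and met the filter only through WT MTAL, where it was the higher.

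Of 22 substrates and partners, 16 were tested. Between the WT segments 2 were higher and 4 lower in MTAL, where 6.87% of all genes passed in either direction, and between the cKO segments 2 were higher and 1 lower, where 1.75% of all genes passed. *Umod*, which hepsin cleaves, was at 23816 to 31790 CPM in WT MTAL and 42435 to 47713 CPM in cKO MTAL, and rose by 0.67 (SE 0.11, adjusted p = 0.00223). The interaction for *Umod* was 0.61 (SE 0.13, adjusted p = 0.045), and in CTAL the genotypes differed by 0.04 (adjusted p = 0.907). *Umod* was lower in WT MTAL than in WT CTAL by a log2 fold change of -0.78 (SE 0.09, adjusted p = 4.11e-05), while *Hpn* passed in none of these comparisons.

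The sodium channel subunits, which several of the members can activate, were unequal in level and in pattern. *Scnn1a*, the alpha subunit, was at 426 to 524 CPM in WT CTAL, 391 to 633 in cKO CTAL, 258 to 314 in WT MTAL and 297 to 418 in cKO MTAL. It was lower in WT MTAL than in WT CTAL (-0.73, SE 0.08, adjusted p = 2.63e-05), and between the genotypes in MTAL it differed by 0.32 (adjusted p = 0.124). *Scnn1b* and *Scnn1g*, the beta and gamma subunits, are also principal cell markers and were at 47.8 and 35.3 CPM in cKO MTAL pool 20, the pool rich in these markers, against 4.0 to 5.59 and 3.06 to 4.19 CPM in the other cKO MTAL pools. *Scnn1b* was lower in WT MTAL than in WT CTAL (-1.10, SE 0.31, adjusted p = 0.0431) and *Scnn1g* did not pass there (-1.18, SE 0.36, adjusted p = 0.0593). In that comparison *Scnn1g* met the filter only through WT CTAL, where it was the higher, so its value is a description. Neither passed between the genotypes.

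*Epcam*, an adhesion protein cleaved by matriptase, was at 599 to 678 CPM in WT MTAL and 365 to 451 CPM in WT CTAL (log2 fold change 0.64, SE 0.08, adjusted p = 8.43e-05). It was also higher in cKO MTAL than in cKO CTAL (0.51, SE 0.09, adjusted p = 0.0182) and differed between cKO MTAL and WT MTAL by -0.35 (adjusted p = 0.065). The protease-activated receptor gene *F2rl1* was at 80.9 to 117 CPM in all groups and passed no test. *F2r*, the thrombin receptor, was higher in cKO MTAL than in WT CTAL (1.43, SE 0.32, adjusted p = 0.0341). It was at 24.0, 31.8 and 86.3 CPM in the cKO MTAL pools, the highest far above the others, and at 14.4 to 20.9 CPM in WT CTAL. *Egf*, a secreted product of distal tubule cells, was lower in WT MTAL than in WT CTAL (-1.02, SE 0.11, adjusted p = 1.89e-05).

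The genes most like a member were sought among 12585 genes by the root mean square difference of log2(CPM + 1), each gene centred on its mean over the 18 pools. For *Klk1* these were *Tmem52b* (0.182), *Sulf2* (0.201), *Aebp1* (0.235), *Klk1b11* (0.286) and *Serpinb1a* (0.294), where the median gene was at 1.14. Their mean CPM took the same order over the groups as *Klk1*, with *Sulf2*, an extracellular sulfatase, at 131 in cKO CTAL, 85.5 in WT CTAL, 57.5 in cKO MTAL and 20.9 in WT MTAL. For *St14* the nearest were *Mta3* (0.0997), *Dnm2* (0.107) and *Mprip* (0.111), with the median gene at 0.334. For *Tmprss2* they were *Atp6v1a* (0.154), *Gpr160* (0.163) and *Slc25a17* (0.168), with the median gene at 0.468. These likenesses are descriptions of the 18 pools, which share their segments and genotypes.

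**Figure D4:**
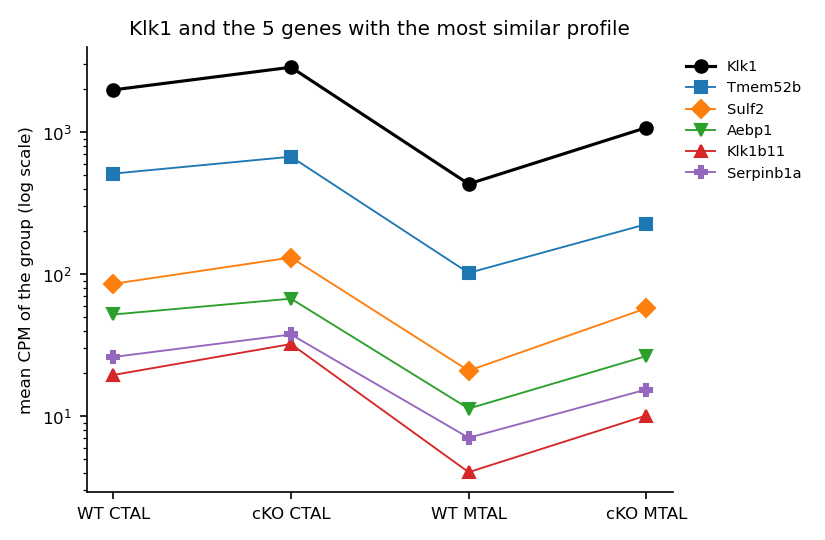
Mean CPM of each group (y axis, log scale) of *Klk1* and the 5 genes with the smallest root mean square difference from it, with the 4 groups along the x axis and lines joining the means of a gene. Each of the 6 genes is highest in cKO CTAL and lowest in WT MTAL, as *Tmem52b* at 672 and 102 CPM.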

How the data were processed

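RNA was sequenced from 18 pools of microdissected thick ascending limbs. The authors trimmed paired-end reads with fastp per their methods (the processing notes of the labels name Trimmomatic), and mapped and quantified them with DRAGEN on mm10 with a gencode annotation. The deposited tables hold estimated counts, which are not normalised, and TPM, in which the authors corrected for transcript length and depth. The use of strand and the treatment of multiply mapped reads are not given in the sources used here, and all columns were mapped to pools. Between 6.26% and 9.53% of all 55401 genes, those without counts included, had decimals in a pool, so estimated counts were rounded before testing. Each pool came from a separate mouse, so p-values measure the spread between mice.

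Each pair of groups was fitted on its own pools in edgeR 4.0.16 (R 4.3.3), with TMM factors and the quasi-likelihood F test. A gene entered with 3 CPM or more in 5 pools, or in 3 pools where cKO MTAL or all groups were fitted. The interaction was fitted on all 18 pools. P-values were adjusted by Benjamini-Hochberg over all genes tested, with a call at adjusted p under 0.05, and fold changes are fitted values with SE and 95% intervals. Alternatives were the likelihood ratio tests of edgeR and DESeq2 (version 1.42.0), other scaling, no filter, limma (version 3.58.1) on log2(TPM + 1) or log2(TPM + 0.1), leaving out each pool, relabelling WT CTAL pool 1, and 1 fit of all pools. The term for *Xist* was planned for pools of at least 10 CPM. No pool reached 10 CPM, so pools of at least 3 CPM were used, a choice made after the data were seen. The code was tested on simulated data.

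The 8 members, the gene lists and the markers were chosen with earlier results of these data known. Beside the members, the genes named are list genes that passed the test with a log2 change of 1 or more in either direction, *Umod*, *Scnn1a*, *Scnn1b*, *Scnn1g*, *Epcam* and *F2rl1*, the genes most like a member that passed a test (5 for *Klk1* and 3 for others), and the checks *Cldn10*, *Slc12a1*, *Xist* and marker lists. *Kng1*, *Mme*, *Cpm*, *Atp2b1*, *Calb1*, *Slc8a1*, *Trpv5*, *S100g* and *Slc12a3* were named after their values were seen. Gene positions are from a GENCODE annotation of GRCm38, which held 99.5% of the gene identifiers, and promoters are from RefSeq. A gene that this rule would name is not reported here.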

Additional observations from a re-analysis of the deposited data

How the results depend on the processing

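Of 924 values of single members under an alternative, 826 kept their direction and their side of the threshold, 26 came to pass, 11 no longer passed and 61 turned sign, all of the last being differences that did not pass. No paired analysis was possible because no groups share replicate numbers. *Klk1* kept its direction in every alternative of every comparison, with log2 fold changes of 1.21 to 1.52 in cKO MTAL over WT MTAL and -2.29 to -2.14 in WT MTAL over WT CTAL, and passed in all of them for both. Of the members, only *Tmprss4* was too low to be tested. The cause of each change below was not tested.

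The number of members passing between cKO CTAL and WT CTAL was 1 in place of 0 with either likelihood ratio test, and 0 to 1 with a pool left out (1 without cKO CTAL pool 4 or WT CTAL pool 8). Between cKO MTAL and WT CTAL it was 2 in place of 1 with the likelihood ratio tests, total counts or 1 fit of all pools with or without the *Xist* term, 0 with limma on TPM, and 1 to 2 with a pool left out (2 without cKO MTAL pool 18). For the interaction it was 1 in place of 0 with the likelihood ratio tests and 0 to 1 with a pool left out (1 without cKO MTAL pool 18 or WT MTAL pool 11). With limma on log2(TPM + 1) or log2(TPM + 0.1) it was 2 in place of 1 for cKO MTAL against WT MTAL and 1 in place of 2 for cKO MTAL against cKO CTAL, and 2 in place of 3 for WT MTAL against WT CTAL. For cKO MTAL against cKO CTAL it was 3 in place of 2 with the likelihood ratio tests, with WT CTAL pool 1 counted as cKO, with 1 fit of all pools with or without the *Xist* term and without cKO MTAL pool 18. With limma on log2(TPM + 1) without a filter it was 1 in place of 3 for WT MTAL against WT CTAL and 0 in place of 2 for cKO MTAL against cKO CTAL, where *Klk1* had -1.36 with adjusted p = 0.227. On log2(TPM + 1) the median of all genes itself lay at 0.196 in cKO MTAL over WT MTAL, 0.126 in cKO CTAL over WT CTAL and 0.143 in cKO MTAL over WT CTAL.

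The signs that turned were these. With total counts, cKO CTAL over WT CTAL gave 0.010 for *Hpn*, 0.048 for *Spint1* and 0.034 for *Spint2*, and the *St14* interaction was 0.0077. Without a filter *St14* was -0.039 in cKO MTAL over WT MTAL and *Spint1* was 0.0075 in cKO CTAL over WT CTAL. With limma on TPM, cKO CTAL over WT CTAL gave 0.036 for *Hpn*, 0.128 to 0.130 for *Spint1* and 0.120 for *Spint2*. There *Spint2* was -0.0037 in WT MTAL over WT CTAL, *Hpn* -0.0033 in cKO MTAL over cKO CTAL, *Tmprss2* 0.075 to 0.076 in cKO MTAL over WT CTAL, and the interactions were 0.011 for *St14* and 0.293 to 0.30 for *Tmprss2*. Counting WT CTAL pool 1 as cKO gave -0.027 for *Prss8* and 0.046 for *Spint1* in CTAL between genotypes, and the *Xist* term gave 0.011 for *Spint1* and 0.0065 for *Spint2*. With a pool left out, cKO CTAL over WT CTAL ran from -0.085 to 0.0019 for *Hpn*, -0.0080 to 0.093 for *Prss8*, -0.061 to 0.031 for *Spint1* and -0.098 to 0.064 for *Spint2*. WT MTAL over WT CTAL ran from -0.023 to 0.115 for *Spint1* and -0.026 to 0.133 for *Spint2*. *Hpn* ran from -0.048 to 0.122 in cKO MTAL over WT CTAL and from -0.0086 to 0.196 in cKO MTAL over cKO CTAL. *St14* ran from -0.045 to 0.137 in cKO MTAL over WT MTAL, and the interactions from -0.096 to 0.091 for *St14* and -0.126 to 0.047 for *Tmprss2*.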
